A study of Mus musculus with 28 samples.

Results

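Expression of 10 genes that mark T cells and natural killer (NK) cells was followed in the mouse liver: the CD3 chains Cd3e, Cd3d and Cd3g, the coreceptors Cd8a, Cd8b1 and Cd4, and the cytotoxic granule genes Nkg7, Gzma, Gzmb and Gzmk. They were chosen by name, as 10 of the 18820 genes that the array measures with a probe set naming exactly 1 gene, and each of the 10 had 1 such probe set. In livers of old mice most of the 10 lay above the level at 12 months, by a median of 0.31 log2 units in the lifelong diet group. The spread between livers was wide. The groups overlapped for each of the 10 genes, as they did for nearly all probe sets. Groups without overlap were found for 0.0366% to 2.76% of all probe sets, depending on the comparison. Of the tests of these 10 genes in the 6 comparisons made, 1 passed, for Gzmb, which encodes granzyme B. It was 1.58-fold higher in switched livers at 24 months than in lifelong livers at 12 months, where 1.32% of all probe sets rose. This call rested on nearly every liver in it. The genes instead varied together from liver to liver, with Cd3d and Cd4 as exceptions.

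All mice were male C57BL/6J on an intermittent (INT) diet, in which weeks of free access to the AIN-93W-MF food, with 25% of its energy as fat, took turns with weeks at 60% of the energy eaten by control mice. In the lifelong groups this began at 9 weeks of age, and mice were killed at the age of 6 (n = 6), 12 (n = 7) or 24 months (n = 7). In the switched group (n = 8) the mice ate AIN-93W-MF without a break from 9 weeks to 12 months, then the intermittent diet, and livers were taken at 24 months. Every mouse was fasted for 4 hours, given carboxymethyl cellulose into the stomach and fasted for 6 hours more. Each array came from a separate mouse. Mice kept on other diets were not analysed here, so every group had eaten the intermittent diet before sampling. Age and time on the diet rose together across the lifelong groups and cannot be told apart. The sources used here do not say in which week of the alternation a mouse was sampled.

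CD3 chains are the fixed part of the T cell receptor complex: they carry the signal into the cell after the variable chains have bound a peptide on an MHC molecule. The coreceptors CD8, a dimer whose conventional form pairs the alpha chain (Cd8a) with the beta chain (Cd8b1), and CD4 bind MHC class I and class II, while alpha chain homodimers occur on some intestinal T cells and dendritic cells. NK cells and cytotoxic T cells kill by releasing granules, in which perforin opens the way for granzymes, the serine proteases encoded by Gzma, Gzmb and Gzmk, and NKG7 is a membrane protein of these granules that takes part in their release. The liver is known as an organ rich in resident NK cells and CD8 T cells. In whole liver RNA a larger number of such cells and more RNA per cell cannot be told apart.

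Values are log2 expression after robust multi-array averaging, so that 1 unit is a doubling, and levels of different genes were not compared, because probe sets differ in brightness for the same amount of RNA. Array medians lay between 5.23 and 5.31, and Pearson's r between arrays, taken across probe sets, ranged from 0.978 to 0.992. The hepatocyte gene Alb, for serum albumin, had group means of 13.6 to 13.7. The brightness of the T and NK cell probe sets, which bears on how well they are measured, ran by mean over all arrays from percentile 26.8 of all probe sets (Cd3d) to percentile 59.1 (Nkg7). Cd3d and Gzma fell among the dimmest 30% of probe sets, where a difference between livers is measured least well. Gzmk, at percentile 31.2, lay just above that limit. No call of presence or absence was made.

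Promoter sequences of the 4 granule genes are shown because 1 of them, Gzmb, gave the only called difference and they varied together. Of the 10 genes, 8 had a promoter entry in the RefSeq table used (GRCm38.p6), and the 250 bases before the start were searched on both strands for RUNX (TGTGGT), AP-1 (TGANTCA), the T-box half-site (GGTGTG), CRE (TGACGTCA) and ETS (CCGGAAG), motifs of factors known from T and NK cells. Below, each promoter runs 5′ to 3′ on the strand of its gene, and capitals mark the matches.
Gzmb promoter: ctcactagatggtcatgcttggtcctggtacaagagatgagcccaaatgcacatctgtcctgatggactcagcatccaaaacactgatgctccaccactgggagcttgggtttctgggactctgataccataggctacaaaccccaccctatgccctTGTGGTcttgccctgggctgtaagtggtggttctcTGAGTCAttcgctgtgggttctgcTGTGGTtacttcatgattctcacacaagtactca
Gzmk promoter: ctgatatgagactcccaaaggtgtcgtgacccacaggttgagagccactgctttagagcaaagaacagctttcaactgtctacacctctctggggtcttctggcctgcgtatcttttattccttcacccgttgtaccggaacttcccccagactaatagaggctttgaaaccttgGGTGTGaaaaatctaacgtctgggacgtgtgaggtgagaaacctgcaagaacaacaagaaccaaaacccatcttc
Gzma promoter: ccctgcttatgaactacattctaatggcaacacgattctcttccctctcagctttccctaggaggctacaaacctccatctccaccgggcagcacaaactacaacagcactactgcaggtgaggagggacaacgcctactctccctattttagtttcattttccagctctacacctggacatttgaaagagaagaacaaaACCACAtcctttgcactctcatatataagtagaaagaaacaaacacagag
Nkg7 promoter: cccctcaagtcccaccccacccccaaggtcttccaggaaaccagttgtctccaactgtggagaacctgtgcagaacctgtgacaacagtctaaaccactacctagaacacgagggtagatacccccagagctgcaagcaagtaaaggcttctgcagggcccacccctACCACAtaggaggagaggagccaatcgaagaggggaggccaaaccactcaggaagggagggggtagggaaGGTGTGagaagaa
The Gzmb window lies at chr14:56262335-56262584 on the minus strand, with RUNX letters at -93 and -34 from the start and an AP-1 match, TGAGTCA, at -58. The Gzmk window (chr13:113180966-113181215, minus strand) has the T-box half-site at -75. The Gzma window (chr13:113100982-113101231, minus strand) has RUNX letters, read as ACCACA, at -50. The Nkg7 window (chr7:43436888-43437137, plus strand) has ACCACA at -83 and the T-box half-site at -13. Over the 8 genes, RUNX was found in 3, the T-box half-site in 3 and AP-1 in 1, and CRE and ETS in 0. Among all 32851 promoter windows of this length, RUNX was present in 14.0%, AP-1 in 6.75%, the T-box half-site in 16.3%, CRE in 1.55% and ETS in 6.91%. A match is a description of the letters in the window, not a site or a cause.

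The CD3 chains had higher means at 24 months than in either younger lifelong group and none passed the test. Cd3e, the epsilon chain, ranged from 5.61 to 5.90 with a median of 5.78 at 6 months and from 5.15 to 6.12 (median 5.69) at 12 months. At 24 months it ranged from 5.47 to 6.39 (median 5.96), and in the switched group from 5.49 to 6.49 (median 5.78). The 6-month livers lay close together, and the range of each other group contained theirs. Cd3g, the gamma chain, had group means of 4.79 ± 0.13 (SD, n = 6) at 6 months, 4.69 ± 0.34 (n = 7) at 12 months, 4.97 ± 0.34 (n = 7) at 24 months and 4.73 ± 0.31 (n = 8) in the switched group. Its lowest and highest livers were 12-month replicate 4, at 4.10, and 24-month replicate 7, at 5.49. Cd3d, the delta chain, stayed between 3.53 and 4.23 in all livers, with group means of 3.79 to 3.94.

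Between 24 and 12 months, Cd3e differed by 0.32 (SE 0.16) and Cd3d by 0.07 (SE 0.11). Cd3g was 0.35 (SE 0.14) higher at 24 than at 12 months, with 6 of 7 livers above the 12-month mean (limma, Benjamini-Hochberg adjusted p = 0.352). It was 0.12, 0.62 and 0.83 higher within array batches G150, G151 and G152. These batches are the first field of the array names, and the labels do not say what that field stands for. Against lifelong mice of 24 months, the switched group differed by -0.27 (SE 0.14, adjusted p = 0.692) in Cd3g, by -0.16 (SE 0.10) in Cd3d and by -0.10 (SE 0.16) in Cd3e. Intervals of all 3 differences included 0, so neither a difference nor its absence was shown.

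Of the coreceptors, both CD8 chains had their highest group means in old livers, in different groups, while no difference of Cd4 between ages passed. Cd8a ranged from 4.65 to 5.10 (median 5.06) at 6 months and from 4.72 to 5.20 (median 4.94) at 12 months. It ranged from 4.66 to 5.46 (median 5.35) at 24 months and from 4.84 to 5.97 (median 5.35) in the switched group. Switched replicates 1 and 4, at 5.97 and 5.91, were the highest of all livers. Cd8b1 ranged from 4.39 to 4.85 (median 4.73) at 6 months, from 4.54 to 5.08 (median 4.80) at 12 months, from 4.63 to 5.62 (median 5.18) at 24 months and from 4.62 to 5.65 (median 4.95) in the switched group. For both chains the lowest old livers lay inside the range of the young ones.

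Cd8b1 was 0.45 (SE 0.16) higher at 24 than at 6 months, with 6 of 7 livers above the 6-month mean (limma, adjusted p = 0.106). The difference was 0.50, 0.50 and 0.20 within batches G150, G151 and G152. Without 24-month replicate 4, the lowest of its group, it was 0.54 and passed (adjusted p = 0.0490), while in every other fit with 1 liver left out the adjusted p did not pass and was at most 0.230. Cd8a was 0.46 (SE 0.15) higher in the switched group than at 6 months (limma, adjusted p = 0.0582) and 0.51 (SE 0.15) higher than at 12 months (limma, adjusted p = 0.0684), with 7 of 8 switched livers above each mean. These values lay just outside the threshold. Leaving out switched replicate 8, the lowest for Cd8a, brought both past it (0.55 with adjusted p = 0.0265, and 0.59 with adjusted p = 0.0439). Leaving out switched replicate 2 (adjusted p = 0.0466) or 6 (adjusted p = 0.0492) did so for the comparison with 6 months. The remaining fits with 1 liver left out did not pass. These were 11 of 14 against 6 months (adjusted p up to 0.146) and 14 of 15 against 12 months (up to 0.195). Within G152, which held 1 switched liver, that same replicate 8, both differences had the opposite sign, -0.25 and -0.11, against 0.48 and 0.44 in G150 and 1.13 and 1.23 in G151.

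**Figure D1:**
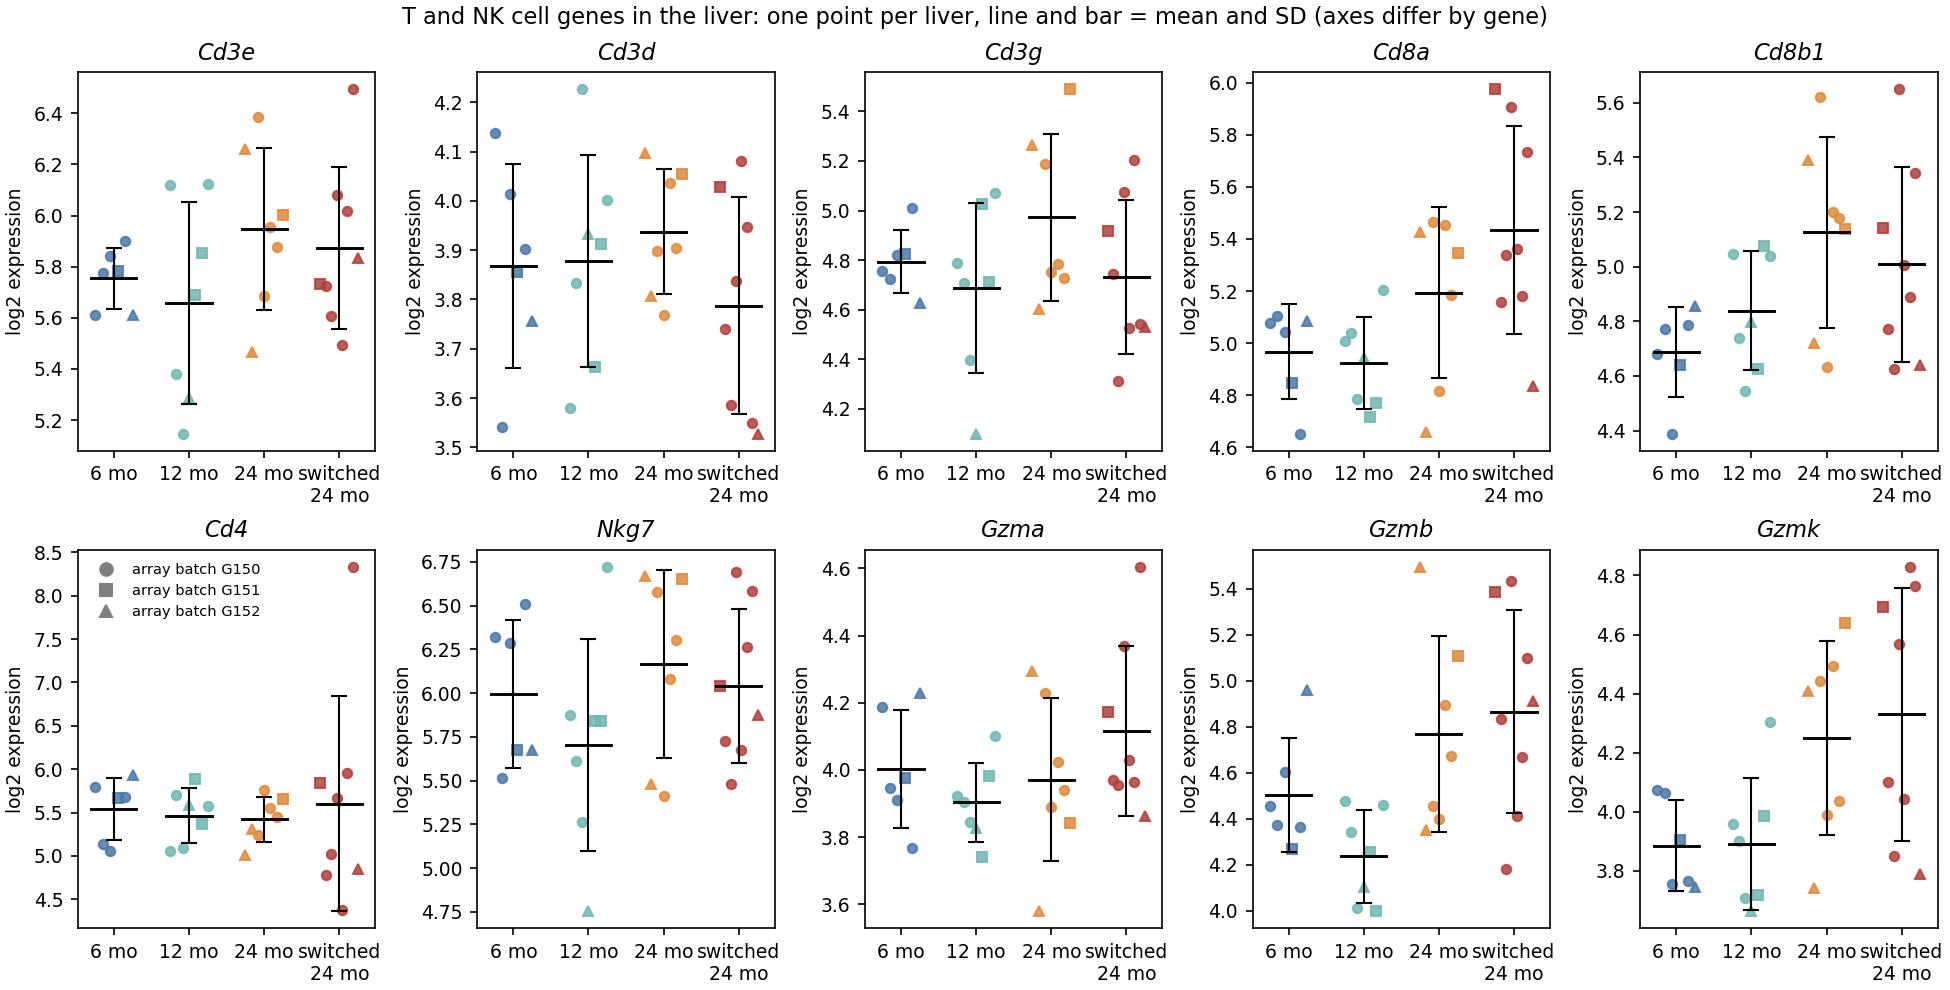
Log2 expression of each of the 10 genes (vertical axes, which differ by gene) in the 4 groups (horizontal axis), with 1 point for each liver, its shape giving the array batch, and the group mean with SD. Old livers reach higher than young ones for Cd8a, Cd8b1, Gzmb and Gzmk while their lowest points stay in the young range, and 1 switched liver stands alone for Cd4, at 8.33.

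The CD8 chains were also set against each other within each liver, as Cd8a minus Cd8b1. This measure was chosen after the values had been seen, so it is given as a description, without a test. It is a difference of log2 signals of unlike probe sets, so only its change between groups can be read, not a ratio of chains. It ranged from 0.19 to 0.83 (median 0.37) in the switched group, from -0.16 to 0.25 (median 0.04) in lifelong mice at 24 months, from -0.31 to 0.30 (median 0.15) at 12 months and from -0.13 to 0.65 (median 0.28) at 6 months. The lowest switched value lay above 5 of the 7 lifelong livers at 24 months and below the other 2, and the range at 6 months overlapped the switched one. The mean was 0.43 ± 0.23 (SD, n = 8) in switched livers, 0.07 ± 0.15 (n = 7) in lifelong ones of the same age, 0.09 ± 0.20 (n = 7) at 12 months and 0.28 ± 0.26 (n = 6) at 6 months. The switched mean was thus 0.36, 0.34 and 0.15 above these, and lifelong mice at 12 and 24 months differed from those at 6 months by -0.20 and -0.21. The gene of each chain on its own did not pass between switched and lifelong mice: Cd8a differed by 0.21 (SE 0.15) and Cd8b1 by -0.13 (SE 0.15).

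Cd4 had group means of 5.55 ± 0.36 (SD, n = 6), 5.46 ± 0.31 (n = 7) and 5.42 ± 0.26 (n = 7) at 6, 12 and 24 months. No difference between them passed (limma adjusted p of at least 0.929). These tests share 1 estimate of the spread with the switched group, whose SD was 1.24, so their SE was 0.38 to 0.39. Their 95% intervals ran from -0.91 to 0.79, so neither a difference nor its absence was shown. The switched group ranged from 4.38 to 8.33 with a median of 5.34. Its highest value, replicate 7, was 5.20-fold above the highest of the other 27 livers (5.95), and its lowest, replicate 5, was also the lowest of all 28. Without replicate 7 the switched mean was 5.21 ± 0.61 (n = 7) instead of 5.60 ± 1.24 (n = 8). The switched differences then turned from 0.16, 0.17 and 0.06 to -0.21, -0.21 and -0.33 against lifelong livers at 24, 12 and 6 months, all without passing (adjusted p = 0.859, adjusted p = 0.675 and adjusted p = 0.390).

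In switched replicate 7, Cd4 stood further above all other livers than any of the 18820 genes, by 2.38 log2 units. Next were the cytokine subunit gene Ebi3 (1.55 above the highest other liver) and the chemerin receptor gene Cmklr1 (1.30). The macrophage colony-stimulating factor receptor gene Csf1r (1.11) and the macrophage gene Cd68 (0.96) were also far above, and the Kupffer cell genes Adgre1 (0.38) and Clec4f (0.29) less so. These genes were named for this liver after its values had been seen. The mean of 16 Kupffer cell and macrophage markers there, 1.44 above the mean of all livers, was the highest of the 28. Of the 10 T and NK cell genes, 8 were above their mean over all livers there and 3 were the highest of the 28: Cd4, Cd3e, at 6.49, and Gzma, at 4.60. Gzmk (4.76), Nkg7 (6.58), Cd8a (5.73), Cd8b1 (5.34) and Gzmb (5.10) were above the median of the other livers (3.99, 5.87, 5.08, 4.80 and 4.45) and below the highest of them. Cd3d, at 3.55, and Cd3g, at 4.54, were below that median (3.90 and 4.75). Dendritic cell genes Flt3, Xcr1 and Siglech were within the range of the other livers. Cd4 is carried by T helper cells and also by some macrophages and dendritic cells, and the part of these cells in the value was not tested.

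Of the 4 granule genes, 1 passed in 1 of the 6 comparisons: Gzmb, between 12 months and the switched group. Gzmb, whose product cleaves after aspartate and triggers apoptosis, ranged from 4.27 to 4.96 (median 4.41) at 6 months, from 4.00 to 4.48 (median 4.26) at 12 months, from 4.35 to 5.50 (median 4.67) at 24 months and from 4.18 to 5.43 (median 4.87) in the switched group. The highest livers were 24-month replicates 1 and 7 (5.50 and 5.11) and switched replicates 4, 1 and 7 (5.43, 5.38 and 5.10), while switched replicate 3 lay among the 12-month values, so the groups overlapped. Switched livers were 0.66 (SE 0.18) higher than those at 12 months, from 4.24 ± 0.20 (SD, n = 7) to 4.87 ± 0.44 (n = 8), with 7 of 8 above the 12-month mean, and this passed (limma, adjusted p = 0.0494). The difference was 0.45, 1.26 and 0.81 within batches G150, G151 and G152, and it passed in 5 of 13 other settings of the analysis, at adjusted p of 0.0288 to 0.426. With 1 liver left out it stayed between 0.56 and 0.74, but it passed in 2 of 15 fits, those without switched replicate 3 or 5. Without any 1 of the 7 livers at 12 months, or without switched replicate 1, 2, 4, 6, 7 or 8, the adjusted p ran from 0.0506 to 0.144. In lifelong mice Gzmb was 0.52 (SE 0.18) higher at 24 than at 12 months, with 7 of 7 livers above the 12-month mean, and did not pass (limma, adjusted p = 0.265). From 6 to 12 months the difference was -0.28 (SE 0.19, adjusted p = 0.577), with 7 of 7 livers below the 6-month mean.

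Gzmk encodes granzyme K, a trypsin-like protease of memory and innate-like T cells. It ranged from 3.75 to 4.07 (median 3.84) at 6 months, from 3.66 to 4.30 (median 3.90) at 12 months, from 3.74 to 4.64 (median 4.41) at 24 months and from 3.79 to 4.83 (median 4.33) in the switched group. The lowest old livers lay inside the young range and the medians at 24 months and in the switched group lay above the highest values of both young groups. Differences at 24 months were 0.40 (SE 0.16) from 6 months (limma, adjusted p = 0.144) and 0.42 (SE 0.15) from 12 months (limma, adjusted p = 0.286). Those of the switched group were 0.44 (SE 0.15) from 6 months (limma, adjusted p = 0.0690) and 0.45 (SE 0.15) from 12 months (limma, adjusted p = 0.0968). Without switched replicate 3 both switched differences passed, at 0.51 (adjusted p = 0.0276) and 0.52 (adjusted p = 0.0421). With any other liver left out they did not pass, in 13 of 14 fits against 6 months (adjusted p up to 0.148) and 14 of 15 against 12 months (up to 0.222). Within batches G150, G151 and G152 each of the 4 differences was above 0, from 0.04 to 0.84. Switched and lifelong livers at 24 months differed by 0.04 (SE 0.15, 95% interval -0.27 to 0.34).

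Nkg7 and Gzma showed no difference that passed. Nkg7 had means of 6.00 ± 0.42 (SD, n = 6), 5.70 ± 0.61 (n = 7), 6.17 ± 0.54 (n = 7) and 6.04 ± 0.44 (n = 8) at 6, 12 and 24 months and in the switched group. It had the widest range at 12 months, from 4.76 in replicate 4 to 6.72 in replicate 7, the lowest and the highest of all 28 livers. Its largest difference was 0.53 (SE 0.26) between 24 and 12 months (limma, adjusted p = 0.452). Gzma, a trypsin-like granzyme whose gene neighbours Gzmk on chromosome 13, had group means of 3.90 to 4.12, and its largest difference was 0.20 (SE 0.11) between switched livers and 12 months (adjusted p = 0.351). Probe sequences were not used here, so signal shared between granzymes of similar sequence was not tested.

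Across the comparisons the values of the groups overlapped for 10 of 10 genes. Groups without overlap were found for 0.0366% to 2.76% of all 35556 probe sets, so overlap was not particular to these genes. Between 6 and 12 months the 95% intervals of all 10 differences included 0, as with -0.85 to 0.24 for Nkg7. Neither a difference nor its absence was thus shown. There 0 of 10 rose and 0 of 10 fell, where 0.363% and 0.228% of all probe sets did (0.591% in either direction, and 0.903% without overlap). An unadjusted p under 0.05 was reached by 0 of 10, against 13.1% of all. Differences ran from -0.31 (Nkg7) to 0.15 (Cd8b1), with a median of -0.10 beside 0.01 for all genes. All 4 granule genes were below 0, with a median of -0.19.

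Between 24 and 6 months 0 of 10 rose and 0 of 10 fell (2.10% and 2.63% of all probe sets, 4.73% together, and 1.69% without overlap). Cd8b1 and Gzmk had an unadjusted p under 0.05, or 2 of 10 against 19.2% of all probe sets, a share near the background. The median was 0.22, beside 0.00 for all genes, and 0.12, 0.50 and 0.20 within the 3 batches. Between 24 and 12 months 0 of 10 rose and 0 of 10 fell (0.0141% and 0.0112% of all, 0.0253% together, and 0.276% without overlap). Gzmb, Gzmk and Cd3g reached an unadjusted p under 0.05, or 3 of 10 against 11.1%. All 10 fitted differences were above 0, from 0.01 (Cd4) to 0.53 (Nkg7), with a median of 0.31, beside -0.01 for all genes, of which 44.7% were above 0. The sign for Cd4 was not stable. Its group mean, without the batch term, was lower at 24 months (5.42) than at 12 months (5.46). Its difference was below 0 in 5 of 13 other settings of the analysis, and that of Cd3d in 1 of 12. Within batches the median was 0.22, 0.44 and 0.33. Both comparisons use the same livers at 24 months, and those at 12 months also enter the comparison with 6 months.

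For switched against lifelong mice at 24 months, 0 of 10 rose and 0 of 10 fell (0.0141% and 0.00562% of all probe sets, 0.0197% together, and 0.0366% without overlap), and 0 had an unadjusted p under 0.05 (7.58% of all). Differences ran from -0.27 (Cd3g) to 0.21 (Cd8a) with a median of -0.03, beside 0.00 for all genes, and the adjusted p from 0.692 to 0.983. Against lifelong livers at 12 months, where age differs as well as diet history, 1 of 10 rose, Gzmb, and 0 of 10 fell (1.32% and 1.00% of all probe sets, 2.32% together, and 0.740% without overlap). With Cd8a and Gzmk, 3 of 10 reached an unadjusted p under 0.05, against 17.5%. The median was 0.21, beside -0.02 for all genes. Against 6 months 0 of 10 rose and 0 of 10 fell (4.66% and 5.39% of all, 10.0% together, and 2.76% without overlap), Cd8a and Gzmk had an unadjusted p under 0.05 (2 of 10, against 23.5%), and the median was 0.11, beside -0.01 for all genes. These comparisons share the switched livers. These shares of all probe sets depended on which livers were included, most of all in the comparisons with few calls. With 1 left out, the 9 calls between 24 and 12 months became 1 to 124 (68 without 24-month replicate 7 and 124 without replicate 4, the others 1 to 6), the 210 between 12 and 6 months 7 to 546, the 7 between switched and lifelong mice 1 to 36, the 1681 between 24 and 6 months 831 to 2370, and the 826 and 3572 of the switched group against 12 and 6 months 313 to 1299 and 2475 to 3849. When the groups were ordered by their means, neighbouring groups did not pass the test for any of the 10 genes.

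**Figure D2:**
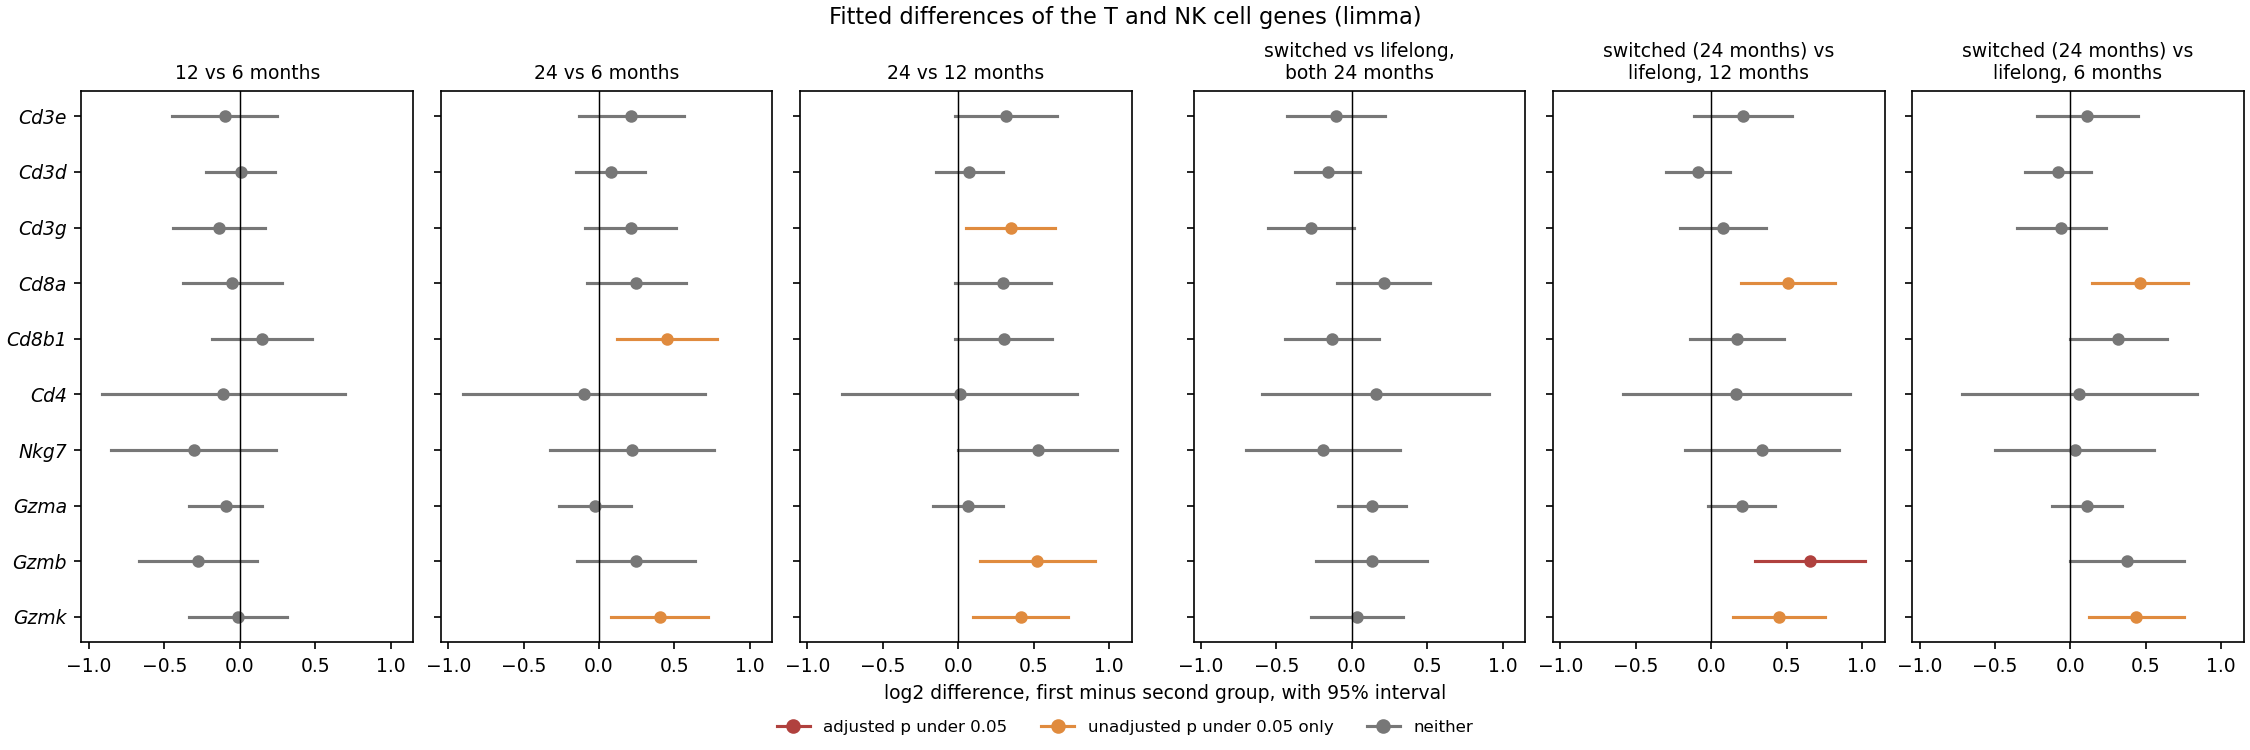
Fitted log2 differences (horizontal axis, the group named ahead minus the other) of the 10 genes in the 6 comparisons, with 95% intervals and colours for the threshold passed. Only Gzmb in the comparison of switched livers with those at 12 months passed after adjustment, and the widest intervals are those of Cd4.

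Livers differed more than groups did. The number of the 10 genes above their mean over all 28 livers was 9 in 24-month replicates 1, 5 and 7, 8 in replicate 3 and 6 in replicate 6, but 1 in replicate 4 and 0 in replicate 2, the lowest of its group for 6 genes. In the switched group it was 9 in replicates 1 and 4, 8 in replicates 6 and 7, 4 in replicate 5, 2 in replicates 2 and 8 and 1 in replicate 3. At 12 months replicate 7 had 9 and the others 1 to 3, and at 6 months the number was 0 to 5. Low and high livers thus stood side by side in both old groups, and 1 liver at 12 months was as high as old ones. The mean difference of the 10 genes from their overall means ranged from -0.18 to 0.03 at 6 months, from -0.37 to 0.18 at 12 months, from -0.30 to 0.36 at 24 months and from -0.28 to 0.63 in the switched group. Array batches each held livers of every group: G150 held 4, 4, 4 and 6, G151 held 1, 2, 1 and 1 and G152 held 1, 1, 2 and 1.

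**Figure D3:**
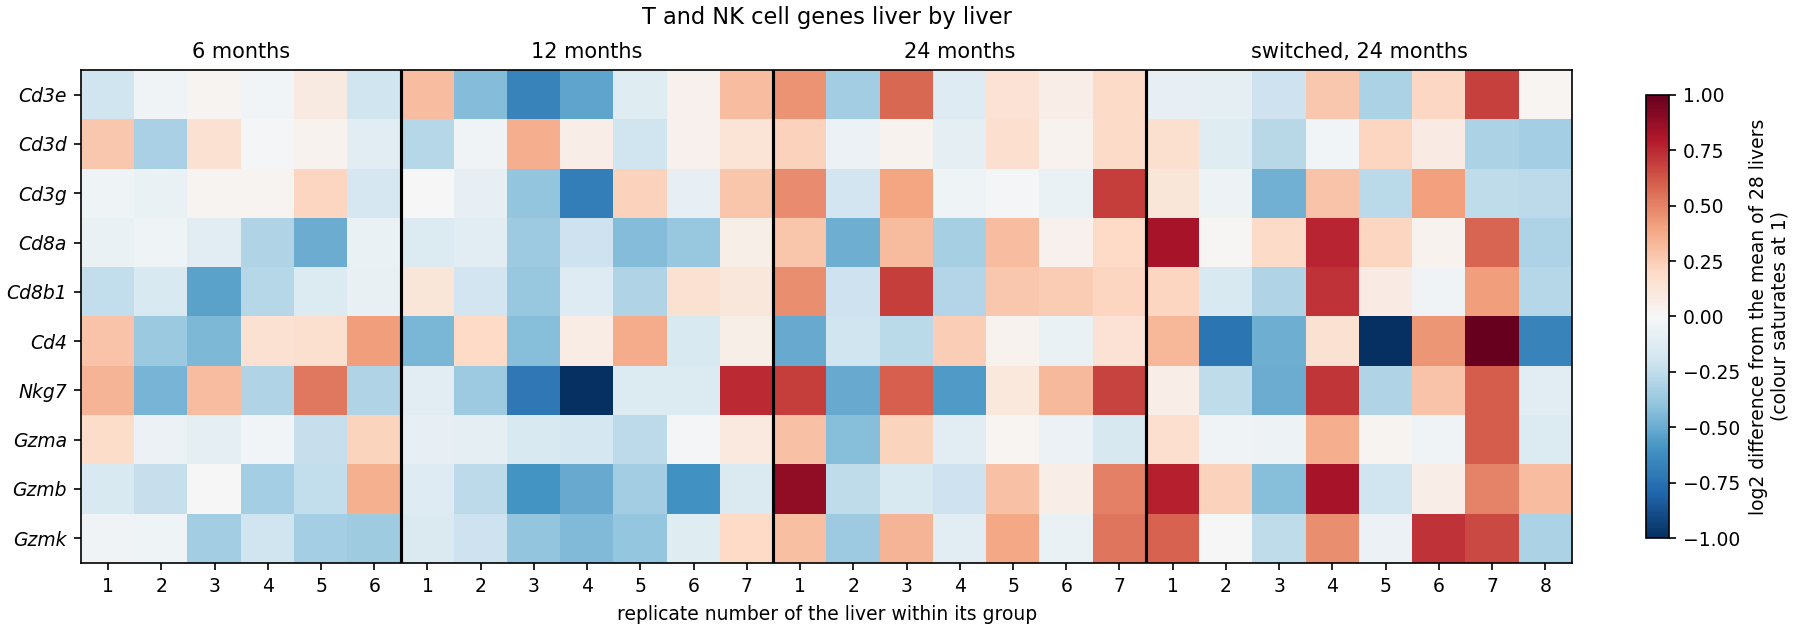
Difference of each gene (vertical axis) in each liver (horizontal axis, by replicate number within the 4 groups) from the mean of that gene over 28 livers, in log2 units, with colours saturating at 1. Columns tend to be red or blue across genes, as in 24-month replicates 1 and 2, while the Cd3d and Cd4 lines follow patterns of their own.

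The genes varied together between livers. Of the 45 pairs, 43 had a Pearson r above 0 over 28 livers, with a median of 0.49, and 28 passed a two-sided permutation test with 100000 resamples after Benjamini-Hochberg adjustment over the 45, all of them positive. By rank, 25 passed, and 23 did without the 2 livers farthest from the median of the gene on the x axis. With group and batch means removed, 27 passed, and 24 did within batch G150. The strongest pair was Cd3e and Nkg7 (r = 0.81, Spearman rho = 0.85, permutation adjusted p = 0.000112), followed by Cd8a and Gzmk (r = 0.79, rho = 0.79), Cd3g and Nkg7 (r = 0.77, rho = 0.71) and Cd8a and Gzma (r = 0.76, rho = 0.74). Without the 2 farthest livers their r was 0.80, 0.75, 0.68 and 0.75. With group and batch removed it was 0.78, 0.68, 0.77 and 0.77. The CD8 chains, neighbours on chromosome 6, had r = 0.72 and rho = 0.69 (permutation adjusted p = 0.000112). Gzma and Gzmk had r = 0.62 and rho = 0.64 (permutation adjusted p = 0.00128).

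Cd3d was in 0 of the 28 passing pairs, although its gene lies between Cd3g and Cd3e on chromosome 9 and its protein belongs to the same complex. Its r was -0.18 with Cd3e (rho = -0.02, permutation p = 0.353, adjusted p = 0.418) and 0.25 with Cd3g (rho = 0.27, permutation p = 0.191, adjusted p = 0.260), whereas Cd3e and Cd3g had r = 0.61 (rho = 0.67, permutation adjusted p = 0.00167). Cd3d was the dimmest of the 10, and the part of its brightness in this was not tested. Cd4 was in 2 passing pairs, with Gzma (r = 0.48, rho = 0.11, permutation adjusted p = 0.0278) and Gzmk (r = 0.41, rho = 0.18, permutation adjusted p = 0.0361). Both rested on switched replicate 7: without it r was 0.06 and 0.22, and without the 2 farthest livers 0.11 and 0.24. Gzmk was in 8 passing pairs, Cd3e, Cd8b1, Nkg7, Gzma and Gzmb in 7 each, Cd8a in 6 and Cd3g in 5.

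**Figure D4:**
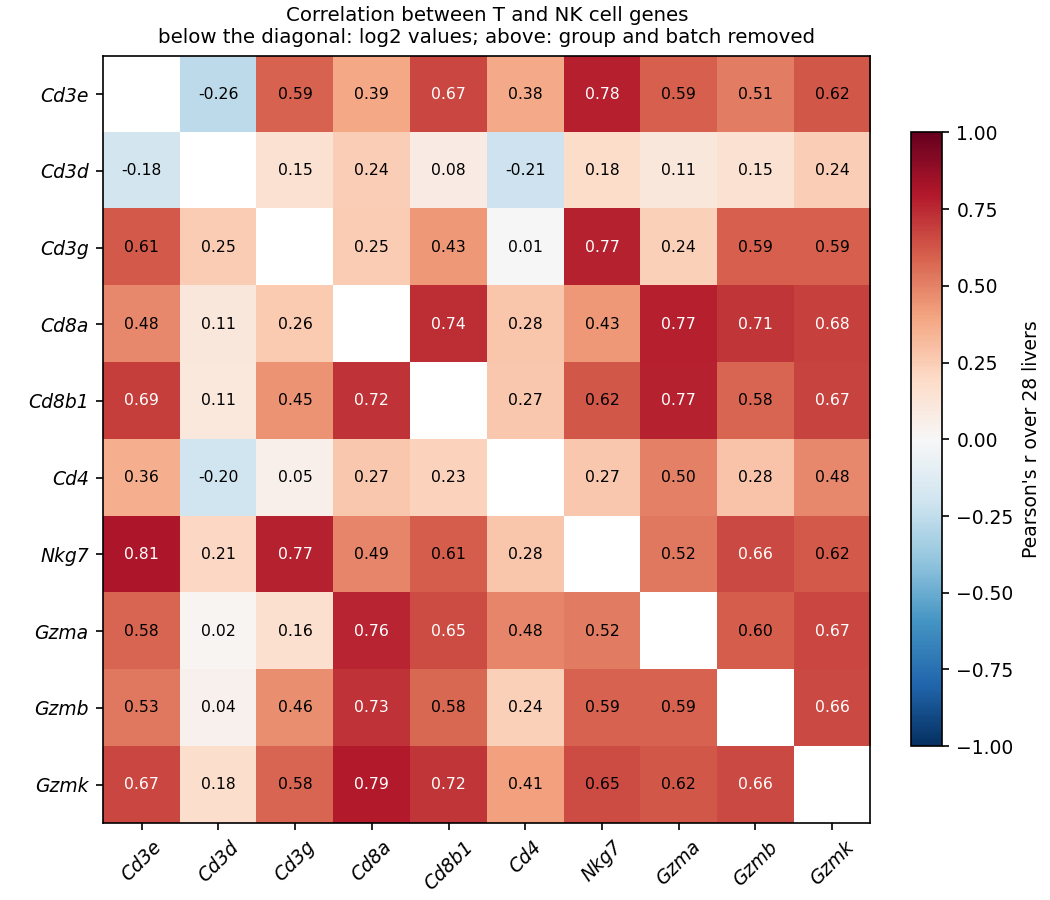
Pearson's r between the 10 genes over 28 livers, from log2 values below the diagonal and with group and batch means removed above it. Values are alike on both sides, from -0.26 to 0.81, with the lowest in the Cd3d and Cd4 lines.

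The T and NK cell genes also followed markers of other leukocytes. Against Ptprc, which encodes the pan-leukocyte protein CD45, r over 28 livers was 0.82 for Cd8a, 0.81 for Gzmk and Cd8b1, 0.72 for Cd3e, 0.71 for Nkg7, 0.67 for Gzma and Gzmb, 0.45 for Cd3g, 0.30 for Cd4 and 0.09 for Cd3d. With Adgre1, a macrophage gene, it was 0.73 for Cd8a, 0.45 for Cd4, 0.32 for Cd3g and 0.05 for Cd3d. In this family of 20 relations, permutation adjusted p did not pass for Cd4 and Cd3d with Ptprc (0.128 and 0.664) and for Cd3g and Cd3d with Adgre1 (0.118 and 0.797). Cd4 with Adgre1 rested on switched replicate 7 (r = 0.13 without it).

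By likeness of pattern over the 28 livers, the genes closest to Cd3e were Runx1 (r = 0.84), Ptger4 (0.83) and Septin1 (0.82), and those closest to Cd3g were Zfp831 (0.74), Gimap3 (0.72) and Slfn1 (0.68). Cd8a was followed by Oxct1 (0.85), Ms4a6c (0.84) and Ccdc80 (0.83), and Cd8b1 by Ptprc (0.81), Capg (0.80) and Ptger4 (0.79). For Nkg7 they were Gm8995 (0.85), Samhd1 (0.84) and Fgd2 (0.83), for Gzma Cyria (0.80), Arhgap22 (0.78) and Samsn1 (0.77), for Gzmb Tnc (0.86), Apaf1 (0.83) and Ccdc80 (0.81), and for Gzmk Hk2 (0.86), Kcnab2 (0.85) and Ccl5 (0.85). Cd3d had weaker companions: Slc5a2 (0.65), Pde4a (0.60) and Amz2 (0.60). Those of Cd4, Rac3 (0.80), Trem1 (0.77) and Ctbp2 (0.76), had r = 0.42, 0.48 and 0.47 without switched replicate 7. These are the 3 highest r among 18820 genes and are given as a description.

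Other genes of T and NK cells, taken from lists, gave few calls in lifelong mice. Of 18 measured genes of T cell receptor signalling and the T cell surface, 1 rose between 6 and 24 months, where 2.10% of all probe sets did: Zap70, the kinase recruited by the phosphorylated CD3 chains, by 0.33 (SE 0.10), from 5.25 ± 0.15 (SD, n = 6) to 5.58 ± 0.14 (n = 7) (limma adjusted p = 0.0434). With 1 liver left out it passed in 3 of 13 fits, those without 6-month replicate 1 or 6 or 24-month replicate 7, and the adjusted p reached 0.106. The adhesion receptor gene Cd2 followed at 0.46 (adjusted p = 0.121), and Cd247, for the zeta chain, at 0.20 (adjusted p = 0.219). Of 16 NK cell receptors and regulators 0 passed, with the smallest p for Tbx21, which encodes T-bet (0.18, adjusted p = 0.124), Eomes (0.27, adjusted p = 0.222) and the receptor gene Cd244a (0.31, adjusted p = 0.228). Of 15 cytotoxic effector genes 0 passed either, with 1.33 (SE 0.42) for the chemokine gene Ccl3 (adjusted p = 0.0636), 0.47 for the death ligand gene Tnfsf10 (adjusted p = 0.0882) and 0.82 for the chemokine gene Ccl5 (adjusted p = 0.126). Of 11 inhibitory and memory genes 0 passed, with 0.64 for Havcr2, which encodes TIM-3 (adjusted p = 0.123), and 0.25 for the homing receptor gene Ccr7 (adjusted p = 0.152). List medians were 0.11, -0.01, 0.15 and 0.14, beside 0.00 for all genes. Between 12 and 6 months, 24 and 12 months, and switched and lifelong mice, 0 genes of these lists passed. Of their 60 entries, Eomes counted in both its lists, 3, 16 and 3 had an unadjusted p under 0.05, beside 13.1%, 11.1% and 7.58% of all probe sets. Tbx21 was 0.29 higher at 24 than at 12 months (adjusted p = 0.103) and differed by -0.27 between switched and lifelong mice (adjusted p = 0.201).

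Switched livers differed from those at 12 months in 6 genes of the effector list and the inhibitory and memory list. In this comparison 1.32% of all probe sets rose, against 0.0141% between 24 and 12 months, so the counts of calls in the lists were not compared between them. Of 15 effector genes 3 rose: Ccl3 by 1.59 (SE 0.39, adjusted p = 0.0302), Ccl5 by 1.06 (SE 0.29, adjusted p = 0.0496) and Slamf7, a receptor gene of NK cells and activated leukocytes, by 0.70 (SE 0.16, adjusted p = 0.0220). Of 11 inhibitory and memory genes 3 rose: Havcr2 by 1.08 (SE 0.22, adjusted p = 0.0109), Tox, the regulator of T cell exhaustion, by 0.39 (SE 0.08, adjusted p = 0.00986) and Ccr7 by 0.39 (SE 0.09, adjusted p = 0.0242). Of the 18 T cell receptor genes and the 16 NK genes 0 passed. Against 6 months, where 4.66% of all probe sets rose, 3 effector genes did (Ccl3, Ccl5 and Slamf7, by 1.50, 0.98 and 0.65). So did 2 genes of the inhibitory and memory list (Havcr2 and Ccr7, by 1.01 and 0.42). With 1 liver left out, Havcr2 and Tox passed against 12 months in 15 of 15 fits, and Havcr2, Ccl3, Slamf7 and Ccr7 passed against 6 months in 14 of 14. Against 12 months Slamf7 passed in 13 of 15 (not without 12-month replicate 3 or switched replicate 1, adjusted p up to 0.0599) and Ccr7 in 12 of 15 (not without 12-month replicate 2 or 4 or switched replicate 1, adjusted p up to 0.0833). Ccl3 passed against 12 months in 8 of 15 (not without 12-month replicate 1, 2, 3, 4 or 6 or switched replicate 1 or 4, adjusted p up to 0.0788). Ccl5 passed in 4 of 15 against 12 months, those without 12-month replicate 7 or switched replicate 2, 3 or 5 (adjusted p otherwise up to 0.112), and in 5 of 14 against 6 months, those without 6-month replicate 1 or 5 or switched replicate 2, 3 or 5 (adjusted p otherwise up to 0.105). In batch G150 alone 0 of these 6 genes passed, at adjusted p of 0.0651 to 0.290. Some of these genes are not specific to T cells: Ccl3, Slamf7 and Havcr2 are also expressed by macrophages. Lifelong livers at 24 months and switched livers did not pass for any of them, with differences of 0.17 (Ccl3), 0.16 (Ccl5), 0.25 (Slamf7), 0.37 (Havcr2), 0.22 (Tox) and 0.17 (Ccr7) and adjusted p of 0.503 to 0.964.

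Markers of other immune cells moved with these comparisons. Between 12 and 24 months the medians were 0.66 for 8 pan-leukocyte genes, 0.68 for 16 Kupffer cell and macrophage genes, 0.71 for 11 B cell genes and 0.30 for 9 neutrophil genes, against 0.31 for the T and NK cell genes. Plasma cell and dendritic cell genes, 10 each, had medians of 0.31 and 0.10. Of all these genes 1 rose, Cd79b of the B cell receptor, where 0.0141% of all probe sets did. Between 12 months and the switched group, where 1.32% of all probe sets rose, the T and NK cell median was 0.21. It was 0.72 for pan-leukocyte (2 of 8 rose), 0.66 for macrophage (4 of 16), 0.63 for B cell (3 of 11) and 0.47 for neutrophil genes (0 of 9). For plasma cell and dendritic cell genes it was 0.25 (0 of 10) and 0.26 (1 of 10, Itgax). The other genes that rose there were Ptprc, by 0.79 (SE 0.19, adjusted p = 0.0273), Coro1a and the B cell genes Ms4a1, by 0.70 (SE 0.19, adjusted p = 0.0451), Cd79b and Cd22. They also included the macrophage genes Lyz2, Itgam, Ccr2 and Trem2, while Adgre1 differed by 0.89 (SE 0.31, adjusted p = 0.126). From 6 to 24 months, where 2.10% of all probe sets rose and 2.63% fell, 5 of 11 B cell genes rose. These were Ms4a1, by 0.75 (SE 0.20, adjusted p = 0.0295), Cd79b, Cd22, Pax5 and Ighm. Of 10 plasma cell genes 3 rose (Igkc, Jchain and Igha), and the medians of the B cell and plasma cell lists were 0.46 and 0.31. Also, 1 of 16 macrophage genes (Lyz2) and 1 of 10 dendritic cell genes (Itgax) rose. The pan-leukocyte, macrophage and neutrophil lists had medians of 0.45, 0.39 and 0.39, against 0.22 for the T and NK cell genes. The dendritic cell, endothelial and cholangiocyte lists had medians of 0.08, -0.02 and -0.04, and the hepatocyte list, in which 1 of 10 genes fell (Tat), of -0.13. Alb differed by -0.08 (adjusted p = 0.280), Clec4f by 0.25 (adjusted p = 0.607) and Adgre1 by 0.50 (adjusted p = 0.458), and Siglech, a plasmacytoid dendritic cell gene, had means of 4.97 and 4.96 (adjusted p = 0.993). With 1 liver left out, Ptprc passed against 12 months in 11 of 15 fits (not without 12-month replicate 2 or 3 or switched replicate 1 or 4, adjusted p up to 0.0809). Ms4a1 passed there in 5 of 15, those without 12-month replicate 7 or switched replicate 1, 3, 5 or 7 (adjusted p otherwise up to 0.105), and between 6 and 24 months in 8 of 13 (not without 6-month replicate 1 or 2 or 24-month replicate 3, 6 or 7, adjusted p up to 0.0811). Of the other genes that rose against 12 months, Cd79b and Cd22 passed in 15 of 15 such fits, Lyz2 and Trem2 in 14 and Itgax in 10. Coro1a, Itgam and Ccr2 passed in 4 each (adjusted p up to 0.0937, 0.104 and 0.135). Between 6 and 24 months, Ighm, Igkc, Jchain and Igha passed in 13 of 13, Cd22 in 8, Lyz2 in 6, Cd79b in 5, Pax5 and Itgax in 4 each and Tat in 3, and Cd79b passed between 12 and 24 months in 3 of 14 (adjusted p up to 0.143). Between 6 months and the switched group the medians were 0.46 for pan-leukocyte, 0.45 for macrophage, 0.45 for B cell and 0.51 for neutrophil genes. Those of plasma cell, dendritic cell and T and NK cell genes were 0.30, 0.15 and 0.11. Pan-leukocyte scores of single livers, as mean differences from the overall means, ran from -0.44 to 0.02 at 6 months, from -0.68 to -0.10 at 12 months, from -0.54 to 0.91 at 24 months and from -0.26 to 1.13 in the switched group. The part of these cells in the values of the T and NK cell genes was not tested.

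**Figure D5:**
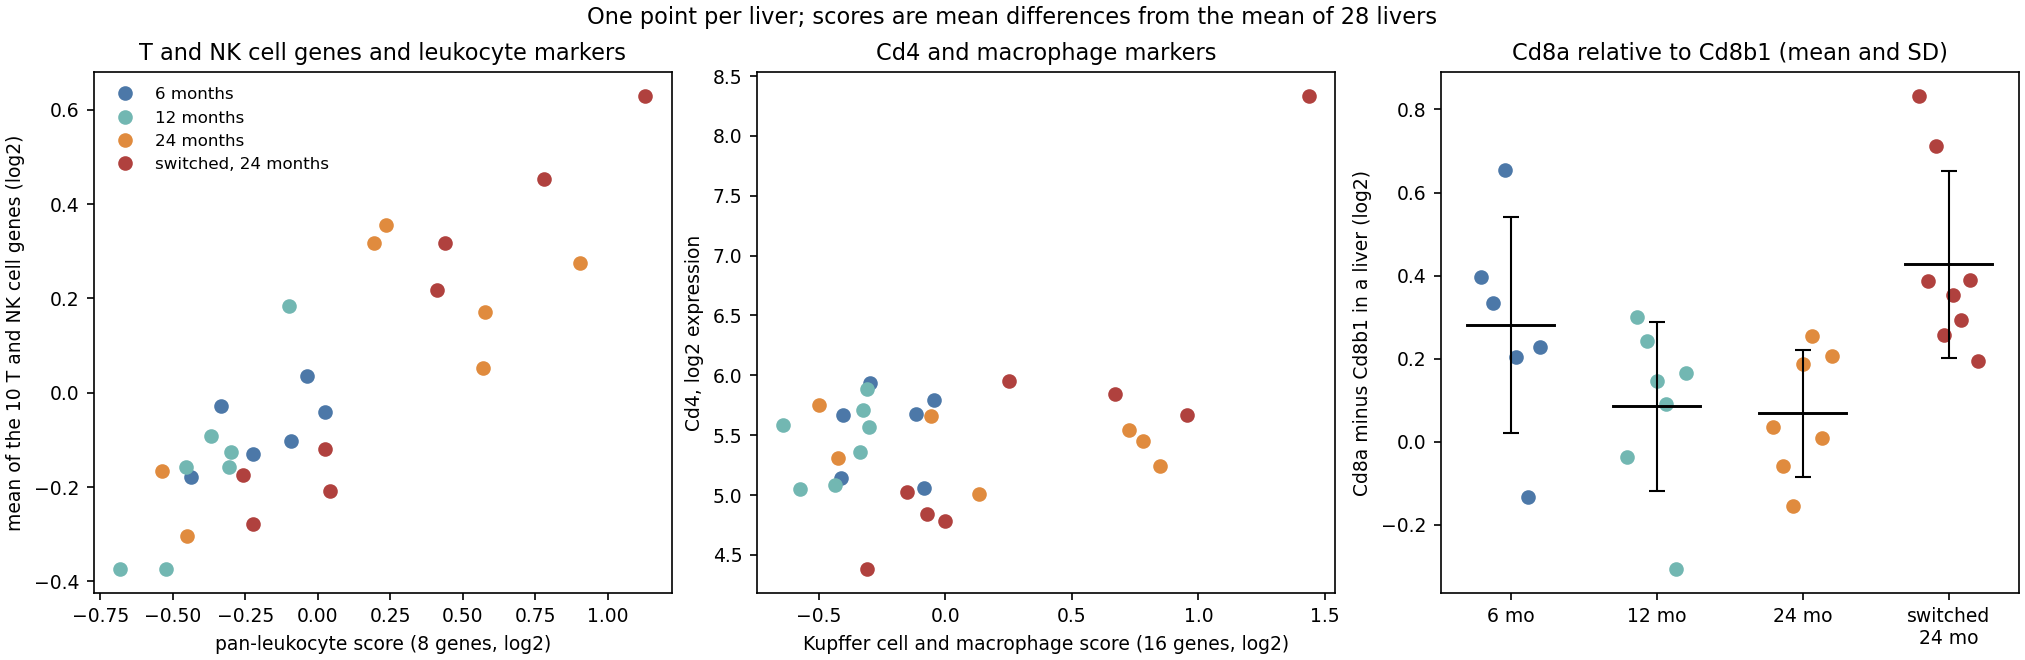
In 3 panels with 1 point for each liver, coloured by group, all on log2 scales: the mean of the 10 T and NK cell genes against the pan-leukocyte score, Cd4 against the Kupffer cell and macrophage score, and Cd8a minus Cd8b1 by group with mean and SD. The T and NK cell mean is highest in switched replicate 7, at 0.63, the liver that also stands alone for Cd4 at 8.33. Cd8a minus Cd8b1 averages 0.43 in switched livers and 0.07, 0.09 and 0.28 in lifelong ones at 24, 12 and 6 months.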

How the data were processed

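The deposited values are log2 expression values that the authors made by robust multi-array averaging (RMA), per the submitters' processing notes, used here without further normalisation. The version of RMA, and whether all arrays were run together, are not given in the sources used here. Total RNA of 28 livers was labelled with biotin and each mouse had its own array, per the labels' protocols. Array batches (G150, G151, G152) were read from the first field of the array names, and the labels do not say what that field stands for. Arrays give no read depth, and their number limits the precision.

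Of 35556 probe sets, 21218 name 1 gene in the platform annotation, which can be old (list genes were also sought through RefSeq synonyms), and the brightest stood for a gene. Listed genes lacking one were left out. All arrays entered 1 model in limma 3.58.1 (R 4.3.3), with 4 groups and batch as terms and empirical Bayes moderation. Tests were two-sided, with Benjamini-Hochberg adjustment over all probe sets and a threshold of 0.05. SE is the moderated standard error, and intervals are at 95%. The replicate number was not a block, since same-numbered livers did not deviate together. Correlations used permutation tests (100000 resamples, scipy 1.17.1). Cd8a minus Cd8b1 was chosen after the values were seen. A liver's score for a list is its mean difference from the mean of all livers. Scripts were tested on simulated data. Python 3.11.15, pandas 2.3.3, numpy 2.4.6 and matplotlib 3.10.9 were also used.

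The rule for named genes takes the 10 members in every comparison, the 3 genes with the smallest p from 6 to 24 months in each other T and NK cell list and any that passed, the 3 genes most like each member, and fixed markers of other cells. Genes named for switched replicate 7, and marker genes beyond those fixed, were chosen after their values were seen. Members and lists were chosen with earlier results of these data known. Alternatives changed the batch term, arrays, filter, scaling, moderation, weights, replicate block and probe sets, and left out each liver in turn.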

Additional observations from a re-analysis of the deposited data

Results flagged for a closer look

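Of 40 gene and group combinations tested for a liver far from its group, 1 was found, where chance gives about 1 in 20: Cd4 in switched replicate 7, at 8.33 log2 units. The gap to the next liver of its group was 0.60 of the group's whole range. Its macrophage markers and T cell genes are given with the Cd4 results, and their part in the value was not tested.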

How the results depend on the processing

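The median over the 10 genes moved by less than 0.23 log2 units, its SD between livers within groups, in every comparison under all alternatives. This is a wide limit, since only the median between 24 and 12 months exceeded it. The median ran from 0.22 to 0.39 there, from 0.12 to 0.30 between 24 and 6 months and from -0.19 to -0.04 between 12 and 6 months. For the switched group it ran from 0.18 to 0.28 against 12 months and from 0.07 to 0.23 against 6 months. With 1 liver left out the median stayed below 0 from 6 to 12 months and above 0 in the comparisons of old with young livers. Its sign differed in 3 alternatives for switched against lifelong mice at 24 months, where it is near 0. The 1 call against 12 months, Gzmb, became 0 calls without the batch term (adjusted p = 0.0517), in G150 alone (0.365), in G151 and G152 alone, with only the 2 groups compared (0.0897), with a mean-variance trend and robust moderation (0.0506), with array weights (0.0553) and without the 2 arrays whose names carry a suffix (0.0899), and 2 calls when only probe sets of 1 gene were fitted. Over all these alternatives its adjusted p ran from 0.0288 to 0.426. Over all probe sets, the 826 calls of that comparison became 140 in G150 alone. Leaving out 1 liver gave 0 to 2 calls there, 0 to 1 for switched against 6 months and 0 to 1 from 6 to 24 months. Against 6 months, where no gene passed, Cd8a gave 1 call without the dimmest 30% of probe sets (adjusted p = 0.0438) or with quantile normalisation repeated (0.0495), and 2 genes passed with only probe sets of 1 gene. With the replicate number as a block the calls were 0 against 12 months (Gzmb adjusted p = 0.0909) and 1 against 6 months (Cd8a, 0.0463), and no other call of the 10 genes changed. Among the list genes, Ccl3 and Ccl5 no longer passed against 12 (0.0898 and 0.0776) or 6 months (0.0622 and 0.0691), nor did Ccr7 (0.0745), Slamf7 (0.0574) and the marker genes Ptprc (0.0687) and Ms4a1 (0.0983) against 12 months. The numbers share no pairing: over 39 same-numbered pairs the median correlation of deviations was -0.0016 (range -0.127 to 0.151), beside -0.0071 for other numbers. Some of these fits held fewer livers or probe sets, while those that changed the batch term, moderation, weights or replicate block held all of them. The cause of these changes was not tested. Groups of 6 to 8 livers and the low brightness of Cd3d, Gzma and Gzmk limit what can be seen.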
